A study of Mus musculus with 30 samples.

Results

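Sterol and fatty acid synthesis was followed through 33 genes of the pathway, chosen by name among the 54532 genes of the count table: 5 regulators, 7 genes of the mevalonate steps, 11 genes of the squalene and later sterol steps, 2 sterol-binding proteins, and 8 genes of fatty acid synthesis, elongation and desaturation. RNA was sequenced from mouse erythroleukemia (MEL) cells, a line of transformed erythroid precursors that matures toward red cells and makes hemoglobin when dimethyl sulfoxide (DMSO) is added. Wildtype (WT) MEL cells and cells in which Abcb10, a mitochondrial membrane transporter, was disrupted by CRISPR/Cas9 (Abcb10-null) were compared without DMSO (day 0) and on days 2 and 5 of culture with DMSO at 1.5%, with 5 biological replicate libraries in each of the 6 groups and 30 in all. The Abcb10-null cells came from 1 clone, named clone 12 in the study's supplement, so that the deletion and other traits of that clone cannot be told apart. Both genotypes were grown in DMEM with pyruvate, Glutamax and nonessential amino acids, and the study's methods add fetal bovine serum, itself a source of lipid.

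Cholesterol and unsaturated fatty acids are made from acetyl-CoA in the cytosol and the endoplasmic reticulum. The sterol regulatory element binding proteins SREBP-1 and SREBP-2, encoded by Srebf1 and Srebf2, are held in the endoplasmic reticulum by Scap and the Insig proteins while sterol is plentiful, and travel to the Golgi for cleavage when it is scarce. Their cleaved forms then switch on genes of both pathways, often together with factors that bind CCAAT and GC boxes. Red cells lose their nucleus and endoplasmic reticulum as they mature, and the mature cell makes no sterol of its own.

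Promoters are shown for 3 members whose transcripts behaved differently. Hmgcs1, the enzyme that condenses acetyl-CoA and acetoacetyl-CoA, is the 1 member with the sterol regulatory element TCACNCCAC in its window. Sc5d, a late sterol desaturase, was with Msmo1 1 of 2 members called higher in Abcb10-null cells on each day, though its day 0 call was fragile. Fasn, fatty acid synthase, had the lowest log2 fold change of the members between the genotypes at day 2. Each sequence is the 250 bases before the RefSeq start on the gene's strand (GRCm38.p6), at chr13:119690101-119690350 (plus strand), chr9:42264301-42264550 (minus strand) and chr11:120824548-120824797 (minus strand). Capitals mark matches on either strand to TCACNCCAC, CCAAT or GGGCGG, and 2 of the CCAAT matches of Fasn overlap.
Hmgcs1: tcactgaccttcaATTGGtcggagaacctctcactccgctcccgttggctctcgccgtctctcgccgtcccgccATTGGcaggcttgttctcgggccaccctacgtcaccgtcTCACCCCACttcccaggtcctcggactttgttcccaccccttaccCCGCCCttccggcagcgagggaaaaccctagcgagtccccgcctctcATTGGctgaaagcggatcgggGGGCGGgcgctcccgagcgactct
Sc5d: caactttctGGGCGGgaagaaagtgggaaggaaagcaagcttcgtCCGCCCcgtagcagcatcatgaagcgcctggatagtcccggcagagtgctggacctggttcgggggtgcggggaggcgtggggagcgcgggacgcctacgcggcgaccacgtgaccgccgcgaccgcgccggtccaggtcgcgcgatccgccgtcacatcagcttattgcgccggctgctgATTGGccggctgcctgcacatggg
Fasn: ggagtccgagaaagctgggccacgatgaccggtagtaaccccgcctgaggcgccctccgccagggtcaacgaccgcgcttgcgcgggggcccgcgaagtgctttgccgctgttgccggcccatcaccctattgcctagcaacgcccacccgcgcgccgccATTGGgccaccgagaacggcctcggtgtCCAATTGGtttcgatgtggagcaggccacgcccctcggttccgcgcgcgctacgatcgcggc
RefSeq held windows for 26 of the 33 members, each with 250 bases before and 50 after the start. The match to TCACNCCAC lay 137 bases before the start of Hmgcs1, and 3.85% of the member windows held one, against 1.44% of the windows of 27025 genes. CCAAT was found in 21 member windows (80.8%, against 41.1% of all genes) and GGGCGG in 22 (84.6%, against 38.2%). Sqle, Stard4, Fdft1, Scd2, Fdps, Scd1 and Fads1 had no window in the table. These matches describe letters in a window, not bound sites. The 27025 genes were not limited to genes expressed in these cells, as all members were. The higher shares among members therefore cannot be read as particular to the pathway.

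Library totals ran from 9906783 to 20157768 counts assigned to genes, and no member had fewer than 17 counts in any library, so all 33 members were tested in every comparison. Levels are given in CPM, the share of a library's counts scaled to a common total, with library sizes adjusted by trimmed mean of M-values (TMM) over the 30 libraries. Abcb10 itself was set beside the genotype labels. Its mean level in WT cells rose from 119 ± 5.65 CPM at day 0 to 1223 ± 45.6 CPM at day 5 (SD, n = 5). In Abcb10-null cells, in which transcript remained, it was 74.3 ± 4.82 and 212 ± 30.2 CPM. At day 0 the libraries did not overlap (112 to 126 CPM in WT and 67.2 to 79.4 CPM in Abcb10-null cells). As Abcb10 rose with differentiation, its day 5 difference alone cannot tell the deletion from weaker differentiation. A total of 5 libraries stood apart from their groups in erythroid transcripts, measured as the summed CPM of 14 marker genes (among them Gata1, Klf1, Tal1, Nfe2, Epor, Tfrc, Slc4a1, Sptb, Ank1, Epb42, Rhag and Ermap). WT day 2 replicates 1 and 2 had sums of 7119 and 7078 CPM, against 4678 to 5126 in the other 3. Abcb10-null day 2 replicates 2 and 5 had 3392 and 3420 CPM, against 3984 to 4730. WT day 5 replicate 5 had 9701 CPM, against 17079 to 18626. Where leaving them out ended a call or moved a named value by more than 1.5 times, the value or the adjusted p without them is given. Markers of neutrophils and monocytes summed to at most 18.4 CPM, of mast cells to at most 6.04 CPM and of lymphocytes to at most 3.53 CPM in any library, while megakaryocyte markers summed to between 154 and 603 CPM, mostly Itga2b and Pf4, with Gp1bb near 0.

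The levels per kilobase of exon, averaged over the 6 groups, ranged widely. Scd2, a stearoyl-CoA desaturase that puts the first double bond into saturated fatty acids, and Srebf1 stood highest, at 215 and 211 CPM per kb. Acly, which makes cytosolic acetyl-CoA from citrate, followed at 68.4 CPM per kb and Insig1 at 67.7. Dhcr7, a late reductase of cholesterol synthesis, was lowest at 0.756 CPM per kb. Within the mevalonate steps, the 7 genes ranged from 2.28 CPM per kb for Idi1 to 50.4 for Pmvk. By the same measure Srebf2 had 4.85 CPM per kb, far under Srebf1.

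At day 0, before DMSO, several sterol and fatty acid genes were modestly higher in Abcb10-null than in WT cells, and 1 regulator was lower. Of the 33 members 11 were higher and 1 was lower by edgeR's quasi-likelihood test at an adjusted p under 0.05, a threshold that holds for every call here. Of all 12912 genes tested, 19.7% were higher and 16.2% lower. The median log2 fold change was 0.12 over the members and -0.0019 over all genes. Higher were 2 of 5 regulators, 4 of 7 mevalonate genes, 2 of 11 later sterol genes and 3 of 8 fatty acid genes. The summed erythroid markers of the genotypes overlapped at this time, at 2955 to 3185 CPM in WT libraries and 3039 to 3397 CPM in Abcb10-null libraries. Single erythroid markers differed all the same. Of 13 tested, 1 was higher and 2 were lower in Abcb10-null cells, with log2 fold changes from -0.91 to 0.25 over the 13. Mast cell, neutrophil and monocyte markers were near 0, and few passed the filter on low counts. In WT cells between days 0 and 2, none of the mast cell list and 1 of the neutrophil and monocyte list were tested. At day 0 the other tested markers thus entered only with the Abcb10-null libraries, so their calls are no support for a difference. Both mast cell markers that were tested, of 4 in the list, were higher in Abcb10-null cells (Fcer1a, 3.53, and Cpa3, 1.79), and the summed list did not overlap (0.25 to 1.1 CPM in WT and 2.9 to 6.04 CPM in the mutant). Of 4 tested neutrophil and monocyte markers, of 8 in the list, Csf1r (1.56), Lyz2 (1.52) and Cd14 (1.12) were higher and Prtn3 (-0.35) was lower, while the sums overlapped (13.5 to 16.1 against 13.2 to 16.4 CPM). Of 3 tested megakaryocyte markers 1 was higher. The part of any of these lists in the members' differences was not tested.

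Insig1 (ENSMUSG00000045294, chr5:28071363-28078662, plus strand, GRCm38), an anchor that retains the Scap and SREBP complex in the endoplasmic reticulum and is itself an SREBP target, had the highest log2 fold change of the members. Its levels were 225, 217, 212, 232 and 193 CPM in WT day 0 libraries and 304, 352, 358, 349 and 356 CPM in Abcb10-null day 0 libraries. No Abcb10-null library fell within the WT range, and the log2 fold change was 0.66 (SE 0.06, edgeR adjusted p = 1.97e-07). Scap, the escort of the SREBPs, went the other way, with 27.3, 29.8, 25.9, 27.5 and 34.2 CPM in WT libraries, and 19.7, 19.5, 15.7, 17.1 and 19.3 CPM in Abcb10-null libraries (log2 fold change -0.67, SE 0.10, edgeR adjusted p = 2.97e-05), again without overlap. Srebf1 was higher by 0.29 (adjusted p = 0.00209), and 1 of its 5 Abcb10-null libraries lay within the WT range.

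In the mevalonate steps, which lead from acetyl-CoA to farnesyl diphosphate, Hmgcs1 had 68.7, 58.0, 72.0, 83.9 and 69.5 CPM in WT libraries, and 90.6, 101, 90.9, 96.3 and 102 CPM in Abcb10-null day 0 libraries. The groups did not overlap, and Hmgcs1 was higher by 0.44 on the log2 scale (SE 0.08, edgeR adjusted p = 0.000383). Fdps, farnesyl diphosphate synthase, was higher by 0.38 (adjusted p = 0.00155), Acat2, an acetoacetyl-CoA thiolase, by 0.24 (adjusted p = 0.00616) and Pmvk, phosphomevalonate kinase, by 0.24 (adjusted p = 0.0148). Later in the pathway, the sterol C4-methyl oxidase Msmo1 was higher by 0.46 (adjusted p = 0.000689) and Sc5d by 0.22 (adjusted p = 0.0448). Among fatty acid genes, Acly was higher by 0.31 (adjusted p = 0.000339), the desaturase Scd1 by 0.27 (adjusted p = 0.00339) and the polyunsaturated fatty acid desaturase Fads2 by 0.16 (adjusted p = 0.0463).

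Across the list, 6 members were higher without overlap of the libraries (Insig1, Acat2, Hmgcs1, Acly, Scd1 and Fads2), against 13.7% of all genes, and Scap was lower without overlap, against 9.15%. The calls of Sc5d and Fads2 each held in 2 of 10 fits that left out 1 library, and without WT day 0 replicate 5 the log2 fold change of Sc5d was 0.13. The call of Sc5d was also lost with DESeq2 (adjusted p = 0.0579), and both calls were lost with DESeq2 size factors in edgeR (0.0589 for Sc5d and 0.0699 for Fads2). When 1 fit held all 30 libraries, 3 of the 12 calls remained, those of Insig1, Hmgcs1 and Acly.

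**Figure D1:**
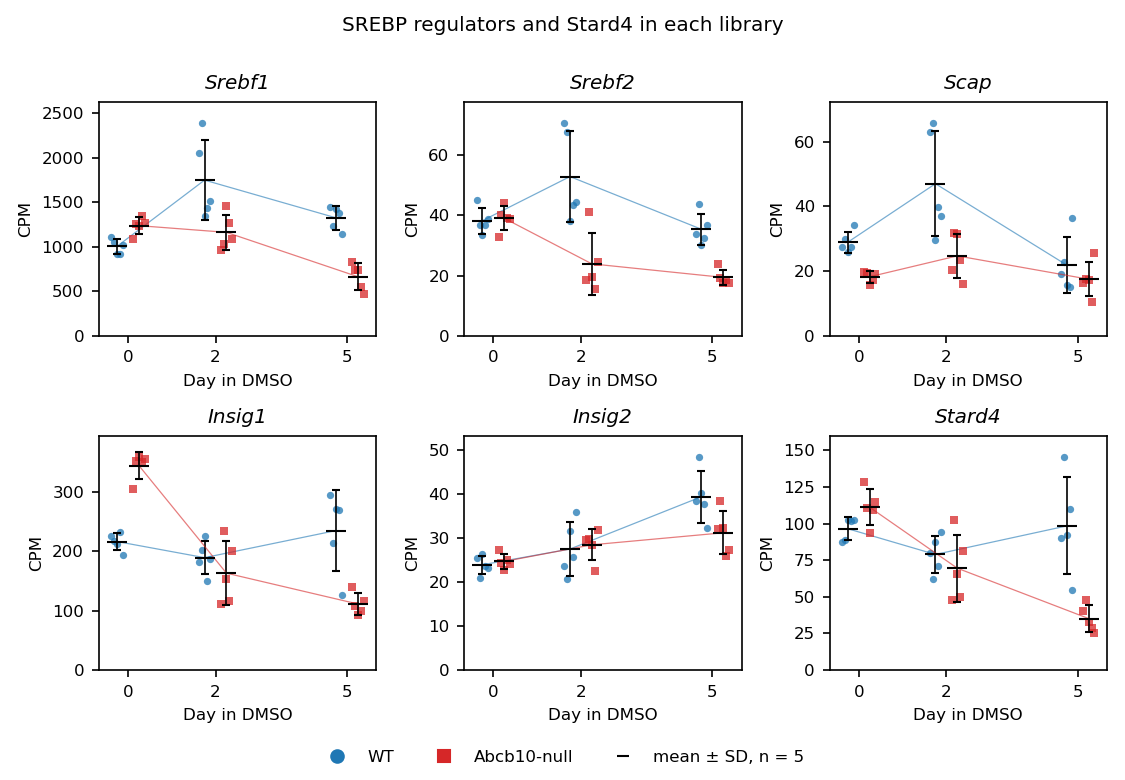
Levels in CPM (vertical axis, from 0) of Srebf1, Srebf2, Scap, Insig1, Insig2 and Stard4 in each library by day in DMSO (horizontal axis). Circles are WT and squares Abcb10-null libraries, and bars give the mean ± SD (n = 5). Insig1 was higher in Abcb10-null libraries at day 0 (mean 344 against 216 CPM) and lower at day 5 (111 against 234 CPM).

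At day 2 the share of members called in either direction was near that of all genes, so the count is not a result about the pathway. In Abcb10-null cells 3 regulators, 2 mevalonate genes and 3 fatty acid genes were lower, and 3 late sterol genes were higher. Of the 33 members 3 were higher and 8 lower, where 14.9% and 16.9% of the 13053 genes tested were. The median was -0.18 over the members and -0.0022 over all genes. These were 3 of 5 regulators, 2 of 7 mevalonate genes, 3 of 8 fatty acid genes and 3 of 11 later sterol genes. This comparison included 4 of the libraries that stood apart. Of the 14 erythroid markers 7 were lower in Abcb10-null cells (median log2 fold change -0.59). Of 3 tested megakaryocyte markers 1 was lower, with log2 fold changes from -1.57 to 0.40 over the 3. The part of either list in the members' differences was not tested.

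Srebf2, the regulator tied mainly to cholesterol genes, had 70.7, 67.6, 38.2, 43.5 and 44.4 CPM in WT day 2 libraries and 18.7, 41.2, 19.7, 15.5 and 24.5 CPM in Abcb10-null day 2 libraries. WT replicates 1 and 2 were the highest of their group, and Abcb10-null replicate 2 lay within the WT range. The log2 fold change was -1.19 (SE 0.27, edgeR adjusted p = 0.00759). Srebf1 (-0.64, adjusted p = 0.0217) and Scap (-0.98, adjusted p = 0.0129) were also lower. The call of Srebf1 was lost without WT replicate 1 (log2 fold change -0.58), WT replicate 2 (-0.49) or Abcb10-null replicate 1 (-0.58).

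Fasn, which builds palmitate, had 480, 486, 133, 153 and 152 CPM in WT libraries, and 44.7, 174, 86.4, 50.3 and 47.4 CPM in Abcb10-null day 2 libraries. WT replicates 1 and 2 had far more than the other 3, while Abcb10-null replicate 2 exceeded those 3. The log2 fold change was -1.85 (SE 0.48, edgeR adjusted p = 0.0129), and it was -0.89 (adjusted p = 0.157) with WT replicates 1 and 2 left out. Acaca, the carboxylase that makes malonyl-CoA (-0.96, adjusted p = 0.0201), and Fads2 (-0.37, adjusted p = 0.0381) were lower too. Scd2 spread the most, with 297, 1787, 553, 324 and 923 CPM in Abcb10-null libraries against 1926, 1738, 1290, 1222 and 1650 CPM in WT libraries. Abcb10-null replicates 2 and 5, which had the low erythroid sums, held the highest Scd2 levels of their group, and the difference of -1.05 (adjusted p = 0.0687) did not pass the test.

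The 3 higher members act on lanosterol or on later intermediates. Sc5d had 34.5, 35.5, 40.8, 30.5 and 35.0 CPM in WT libraries, and 67.4, 44.3, 67.3, 71.1 and 49.1 CPM in Abcb10-null day 2 libraries. All Abcb10-null libraries were above all WT libraries, with replicates 2 and 5 nearest to them (log2 fold change 0.71, SE 0.15, edgeR adjusted p = 0.00561). Msmo1 was higher by 0.80 (adjusted p = 0.00863), also without overlap, and Cyp51, the lanosterol demethylase, by 0.49 (adjusted p = 0.0249). Of all genes, 8.01% were higher without overlap. Of the mevalonate genes, Mvd, the decarboxylase that makes isopentenyl diphosphate (-0.46, adjusted p = 0.0412), and Fdps (-0.40, adjusted p = 0.0448) were lower. Mvd was the 1 member that was lower without overlap, against 8.11% of all genes.

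The day 2 count depended on the libraries used. Without WT replicates 1 and 2, the 1 call was Sc5d (0.71, adjusted p = 0.0483), and Srebf1 (-0.35), Scap (-0.56) and Acaca (-0.44) moved by more than 1.5 times. In that fit Srebf2 (edgeR adjusted p = 0.0766), Msmo1 (0.0711), Cyp51 (0.11), Mvd (0.146), Fdps (0.159) and Fads2 (0.193) also lost their calls. Without Abcb10-null replicates 2 and 5, 17 members were called, 4 higher and 13 lower, Scd2 among the latter (-2.05, adjusted p = 0.000109). Srebf1 was not called in that fit (edgeR adjusted p = 0.0539). With all 4 left out, 19 were called, 4 higher and 15 lower, among them Scd2 (-1.87, adjusted p = 1.02e-05), Scd1 (-1.10, adjusted p = 2.88e-05), Insig1 (-0.61, adjusted p = 0.00577) and Fasn (-1.32, adjusted p = 0.000103), but not Srebf1 (-0.26, adjusted p = 0.142). These sets of libraries were chosen after the data were seen. In fits that left out 1 library, the day 2 count was 5 without WT replicate 1, WT replicate 2 or Abcb10-null replicate 1, and 6 without Abcb10-null replicate 4. Srebf2, Scap, Msmo1, Sc5d and Fasn were called in all 10 of those fits, Acaca in 6, Cyp51 in 5, Mvd and Fads2 in 3 each and Fdps in 2.

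**Figure D2:**
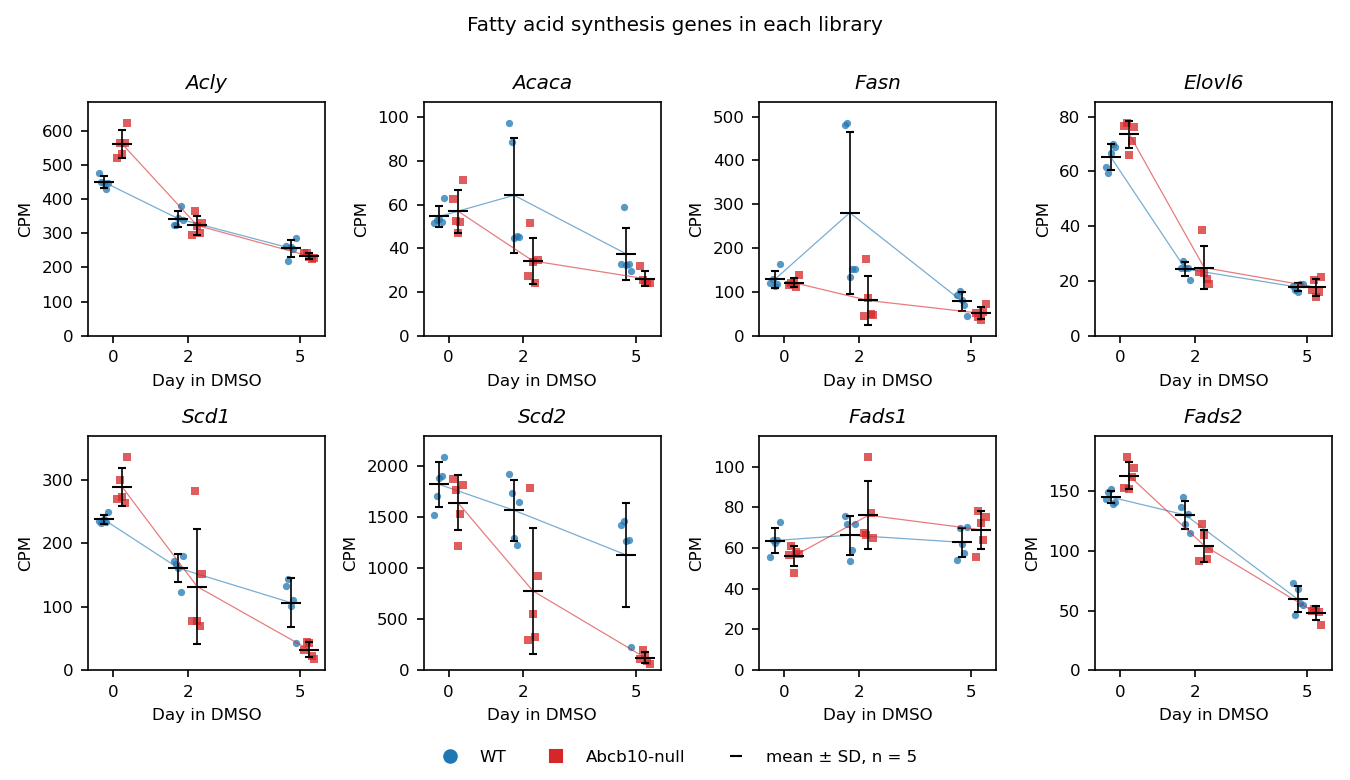
Levels in CPM (vertical axis, from 0) of 8 fatty acid genes in each library by day in DMSO. Circles are WT and squares Abcb10-null libraries, and bars give the mean ± SD (n = 5). Scd2 fell to between 63.6 and 196 CPM in Abcb10-null day 5 libraries, WT day 5 replicate 5 had 222 CPM, and WT day 2 replicates 1 and 2 stood alone for Fasn at 480 and 486 CPM.

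At day 5 most called members were lower in Abcb10-null than in WT cells, across regulators, mevalonate enzymes, late sterol enzymes and desaturases, while Cyp51, Msmo1 and Sc5d were higher. Of the 33 members 3 were higher and 15 lower, where 19.8% and 17.8% of the 12676 genes tested were. The median log2 fold change was -0.46 over the members and -0.016 over all genes. Lower were 3 of 5 regulators, 3 of 7 mevalonate genes, 4 of 11 later sterol genes, 1 of 2 sterol-binding proteins and 4 of 8 fatty acid genes. Libraries did not overlap for 8 lower members, against 10.4% of all genes, and for 2 higher members, against 13.5%. At this time 13 of 14 erythroid markers were lower in the mutant, at a median log2 fold change of -1.41 and summed levels of 4660 to 6841 CPM against 9701 to 18626 CPM in WT libraries. Of 3 tested neutrophil and monocyte markers 1 was higher, and the sums of that list did not overlap (3.5 to 5.66 CPM in WT libraries and 5.83 to 12 CPM in the mutant). Of that list 1 was tested in WT cells between days 0 and 5, so that markers passed the filter partly through Abcb10-null libraries. Of 3 tested megakaryocyte markers 1 was higher and 1 lower, with log2 fold changes from -1.29 to 0.86, and the sums of that list overlapped. The part of any of these lists in the members' differences was not tested, and in bulk RNA fewer cells of a type and less RNA per cell cannot be told apart.

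Scd2 (ENSMUSG00000025203, chr19:44293674-44306864, plus strand, GRCm38) had the lowest log2 fold change of the members. Its levels were 1418, 1458, 1269, 1272 and 222 CPM in WT day 5 libraries and 109, 196, 151, 91.6 and 63.6 CPM in Abcb10-null day 5 libraries. Even WT replicate 5, the low one of its group, lay above every Abcb10-null library. The log2 fold change was -3.22 (SE 0.45, edgeR adjusted p = 0.000166), and -3.49 (adjusted p = 1.75e-06) without WT replicate 5. The related desaturase Scd1 had 132, 144, 102, 111 and 43.0 CPM in WT libraries, and 31.3, 44.6, 43.3, 22.8 and 17.8 CPM in Abcb10-null libraries, where replicate 5 of the WT group overlapped with the others. The log2 fold change of Scd1 was -1.75 (SE 0.32, edgeR adjusted p = 0.000998), and -1.96 (adjusted p = 6.29e-05) without that library.

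In fatty acid synthesis itself, Fasn (-0.63, adjusted p = 0.0384) and Acaca (-0.53, adjusted p = 0.0409) were lower. Both calls were fragile, since 3 of 10 fits that left out 1 library kept that of Fasn and 5 of 10 that of Acaca, which was -0.32 without WT day 5 replicate 2. The remaining 4 fatty acid genes were not called: Acly, Elovl6 (fatty acid elongation, -0.01), Fads1 (0.13) and Fads2 (-0.32).

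Both SREBP genes were lower. Srebf1 had 1448, 1233, 1428, 1376 and 1141 CPM in WT libraries, and 833, 737, 734, 553 and 466 CPM in Abcb10-null day 5 libraries (log2 fold change -1.01, SE 0.16, edgeR adjusted p = 0.000352). Srebf2 had 34.0, 43.7, 30.2, 32.5 and 36.6 CPM in WT libraries, and 23.7, 19.3, 17.6, 18.7 and 17.7 CPM in Abcb10-null libraries (-0.88, SE 0.14, edgeR adjusted p = 0.000393). For neither gene did the groups overlap. Insig1 had 293, 213, 271, 269 and 126 CPM in WT libraries, and 140, 108, 92.4, 98.8 and 116 CPM in Abcb10-null libraries. Only WT replicate 5 fell into the Abcb10-null range, and Insig1 was lower (log2 fold change -1.09, SE 0.20, edgeR adjusted p = 0.00119), the opposite direction to day 0. Scap (-0.32) and Insig2, the second retention protein (-0.35), were not called.

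Stard4, a cytosolic carrier that moves cholesterol between membranes, had 90.2, 145, 92.1, 110 and 54.6 CPM in WT libraries, and 40.6, 48.1, 33, 28.9 and 25.4 CPM in Abcb10-null day 5 libraries. The groups did not overlap (log2 fold change -1.50, SE 0.24, edgeR adjusted p = 0.000475). Tmem97, a sterol-binding protein of the endoplasmic reticulum and the other member of that group, had 10.3 ± 1.01 CPM in WT libraries, and 11.4 ± 1.27 CPM in Abcb10-null libraries (SD, n = 5) and was not called.

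Among the mevalonate genes Idi1, isopentenyl diphosphate isomerase, had 14.6, 16.2, 13.6, 17.2 and 6.25 CPM in WT libraries, and 5.24, 5.60, 3.22, 3.95 and 5.63 CPM in Abcb10-null day 5 libraries. It was lower without overlap (log2 fold change -1.53, SE 0.27, edgeR adjusted p = 0.000898), though WT replicate 5 came close to the Abcb10-null range. Fdps (-0.99, adjusted p = 0.000613) and Acat2 (-0.54, adjusted p = 0.00605) were lower. Hmgcs1, which had been higher at day 0, had 77.3 ± 16 CPM in WT libraries, and 70.7 ± 7.87 CPM in Abcb10-null libraries (SD, n = 5) and was not called, nor were Mvk, Pmvk and Mvd.

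The sterol genes after farnesyl diphosphate split. Lss, which closes the sterol rings, had 47.4, 42.5, 46.9, 46.2 and 34.6 CPM in WT libraries, and 21.5, 24.7, 25.6, 29.4 and 21.6 CPM in Abcb10-null libraries (-0.84, SE 0.13, edgeR adjusted p = 0.000435), without overlap. Also lower were Nsdhl, which removes the C4 carboxyl group (-0.85, adjusted p = 0.000495), the sterol isomerase Ebp (-0.59, adjusted p = 0.0191) and squalene synthase Fdft1 (-0.62, adjusted p = 0.0442). Cyp51 went the other way, with 72.5, 52.5, 74.3, 64.7 and 57.4 CPM in WT libraries, and 79.0, 92.7, 94.2, 76.1 and 99.0 CPM in Abcb10-null libraries (0.45, SE 0.13, edgeR adjusted p = 0.0133). Sc5d had 46.9, 41.3, 44.7, 44.4 and 33 CPM in WT libraries, and 58.3, 58.3, 61.1, 62.9 and 63.0 CPM in Abcb10-null libraries (0.52, SE 0.11, edgeR adjusted p = 0.00334). Both were higher in every Abcb10-null library than in any WT library, and Msmo1 was higher by 0.57 (adjusted p = 0.0166) with 4 of 5 libraries above all WT libraries. Sqle, squalene epoxidase, differed by -0.16 and was not called. The call of Fdft1 held in 3 of 10 fits that left out 1 library, that of Msmo1 was lost without Abcb10-null replicate 3 or 5 (0.48 in each case), and that of Ebp without Abcb10-null replicate 5 (-0.56).

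**Figure D3:**
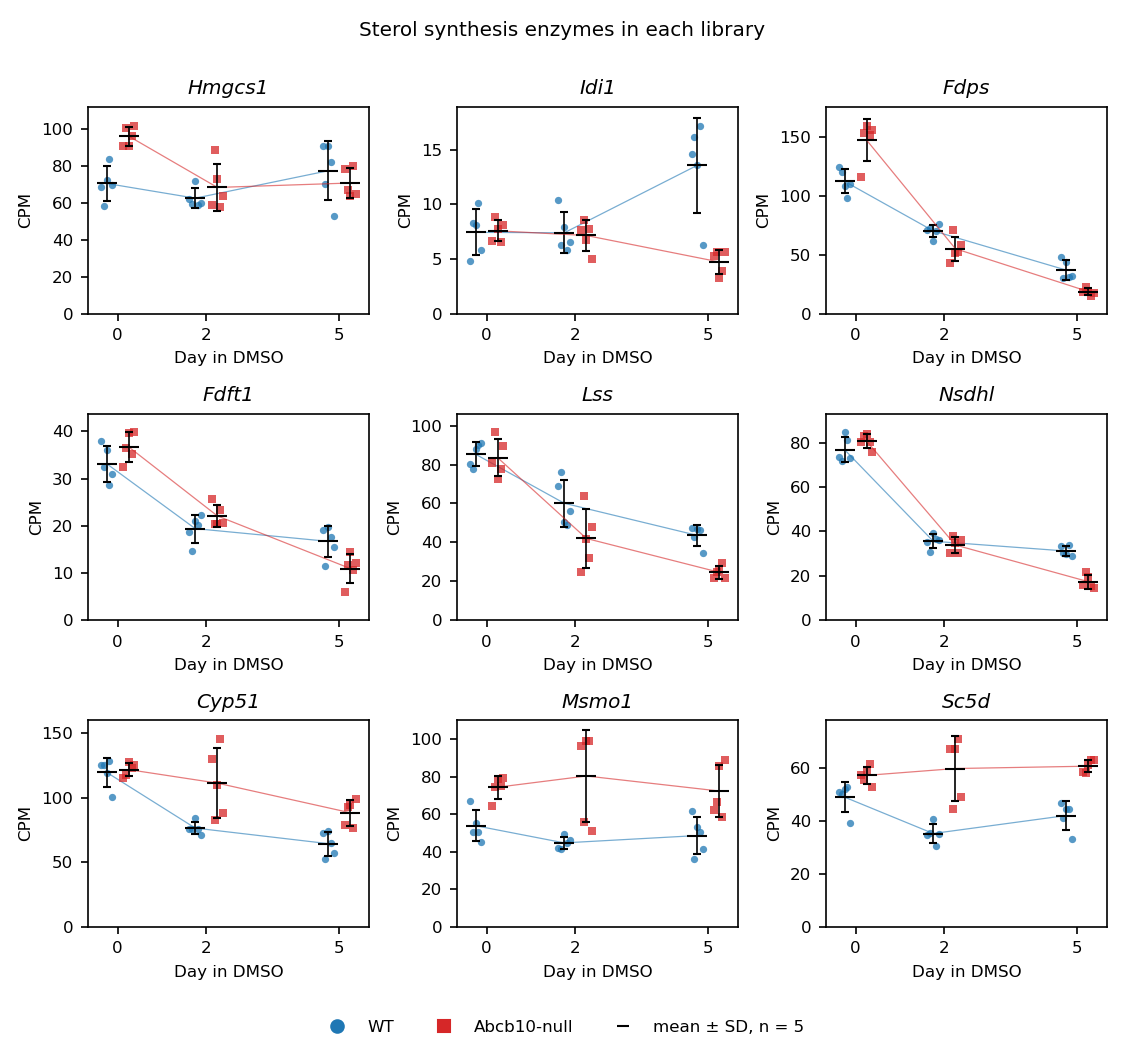
Levels in CPM (vertical axis, from 0) of 9 sterol synthesis genes in each library by day in DMSO. Circles are WT and squares Abcb10-null libraries, and bars give the mean ± SD (n = 5). Idi1 rose in WT cells to a mean of 13.6 CPM at day 5 and was 4.73 CPM in Abcb10-null cells, whereas Cyp51, Msmo1 and Sc5d were higher in Abcb10-null cells at days 2 and 5.

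During differentiation, most called members fell in both genotypes. In WT cells from day 0 to day 5, 5 members rose and 18 fell, where 36.5% and 34.7% of the 12723 genes tested did, with medians of -0.67 over the members and 0.023 over all genes. In Abcb10-null cells over the same days 3 rose and 26 fell, where 33.9% and 33.3% of the 12915 genes tested did, with medians of -1.12 and 0.014. The libraries of the days did not overlap for 18 members with lower and 4 with higher levels at day 5 in WT cells (28.6% and 27.8% of all genes), and for 25 with lower and none with higher levels in Abcb10-null cells (27.6% and 26.6%). Of the erythroid markers, 14 of 14 rose over the same days in WT cells. In Abcb10-null cells 9 of 14 rose and 4 fell. The part of these markers in the members' changes was not tested. The comparisons of days within a genotype share libraries with each other.

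Tmem97 fell furthest in WT cells. Its levels went from 90.0, 96.6, 101, 86.9 and 94.3 CPM at day 0 to 10.9, 9.36, 9.83, 11.8 and 9.66 CPM at day 5 (log2 fold change -3.19, SE 0.10, edgeR adjusted p = 8.36e-11). In Abcb10-null cells it went from 100, 95.7, 106, 108 and 86.9 CPM to 9.54, 11, 12.7, 11.5 and 12.5 CPM (-3.11, edgeR adjusted p = 1.25e-12). The genotype by day interaction was 0.08 (SE 0.14, adjusted p = 0.68), which was not called. Elovl6, which extends palmitate, fell by 1.88 in WT cells (65.3 ± 4.72 to 17.8 ± 1.36 CPM, SD, n = 5), with an interaction of -0.16 (SE 0.15, adjusted p = 0.446). Also among the WT falls were Fdps (-1.61), Nsdhl (-1.30) and Fads2 (-1.29).

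Some members rose. Tm7sf2, a sterol C14-reductase, went from 5.51 ± 1.23 CPM at day 0 to 13.8 ± 2.22 CPM at day 5 in WT cells (SD, n = 5, log2 fold change 1.32, edgeR adjusted p = 1.98e-05). Idi1 rose by 0.87 (adjusted p = 0.011), Insig2 by 0.72 (adjusted p = 0.000155), Srebf1 by 0.40 (adjusted p = 0.00318) and Hsd17b7, a sterol 3-keto reductase, by 0.33 (adjusted p = 0.0363), the last called in 3 of 10 fits that left out 1 library. In Abcb10-null cells Tm7sf2 rose by 0.56 (adjusted p = 0.0371), Insig2 by 0.35 (adjusted p = 0.0127) and Fads1, a polyunsaturated fatty acid desaturase, by 0.31 (adjusted p = 0.0136). The call of Tm7sf2 there held in 3 of 10 fits that left out 1 library, the value was 0.34 without Abcb10-null day 5 replicate 2, and the call was lost with DESeq2 (adjusted p = 0.0788) and with the replicate block (0.0774). Those of Insig2 and Fads1 were lost under the looser filter of 1 count (adjusted p = 0.111 and 0.134). The largest falls in Abcb10-null cells were those of Scd2 (-3.73), Scd1 (-3.16), Tmem97 (-3.11), Fdps (-2.96) and Nsdhl (-2.21).

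Between day 0 and day 2, 5 members rose and 17 fell in WT cells (31.5% and 30.7% of all genes), and 3 rose and 19 fell in Abcb10-null cells (23.1% and 20.1%). The medians were -0.27 and -0.64 over the members and 0.0096 and 0.033 over all genes. The rises in WT cells were those of Tm7sf2 (1.27), Fasn (1.11), Srebf1 (0.80), Scap (0.70) and Srebf2 (0.46). Without WT day 2 replicates 1 and 2, Fasn (0.22, adjusted p = 0.0976) and Srebf2 (0.17, adjusted p = 0.167) did not pass, and Scap was 0.33 (adjusted p = 0.0265). Tmem97 (-1.64), Elovl6 (-1.42), Nsdhl (-1.11), Fdft1 (-0.78) and Fdps (-0.68) had the largest falls. In Abcb10-null cells Tm7sf2 (0.79), Fads1 (0.47) and Hsd17b7 (0.47) rose, and Tmem97 (-1.56), Elovl6 (-1.53), Fdps (-1.39), Nsdhl (-1.22) and Scd1 (-1.09) fell most. The call of Hsd17b7 (adjusted p = 0.049) held in 2 of 10 fits that left out 1 library and in 2 of 7 other alternatives, and was lost with DESeq2 (adjusted p = 0.0503) and the replicate block (0.0953) among others. Without Abcb10-null day 2 replicates 2 and 5, Scd1 was -1.93.

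Between day 2 and day 5, 2 members rose and 13 fell in WT cells (17% and 16.4% of all genes), with a median of -0.24 against -0.026 over all genes. The rises were those of Idi1 (0.88) and Insig2 (0.51), and the largest falls those of Fasn (-1.81), Tmem97 (-1.55), Fads2 (-1.12), Scap (-1.09) and Dhcr7 (-1.02). The call of Idi1 was lost without WT day 5 replicate 4, where 9 members in all were called, and that of Insig2 held in 3 of 10 fits that left out 1 library. Without WT day 2 replicates 1 and 2, Insig2 (0.26, adjusted p = 0.256) and Scap (-0.77, adjusted p = 0.0505) were not called and Fasn was -0.97. In Abcb10-null cells 17 members fell (16.6% of all genes), with a median of -0.56 against 0.0083, and no member rose by edgeR, at an unadjusted p under 0.05 or by DESeq2, where 14.4% of all genes did. Scd2 (-2.68), Scd1 (-2.05), Fdps (-1.56), Tmem97 (-1.53) and Fads2 (-1.13) fell most, and without Abcb10-null day 2 replicates 2 and 5 Scd2 was -1.67 and Scd1 -1.22, both still called.

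**Figure D4:**
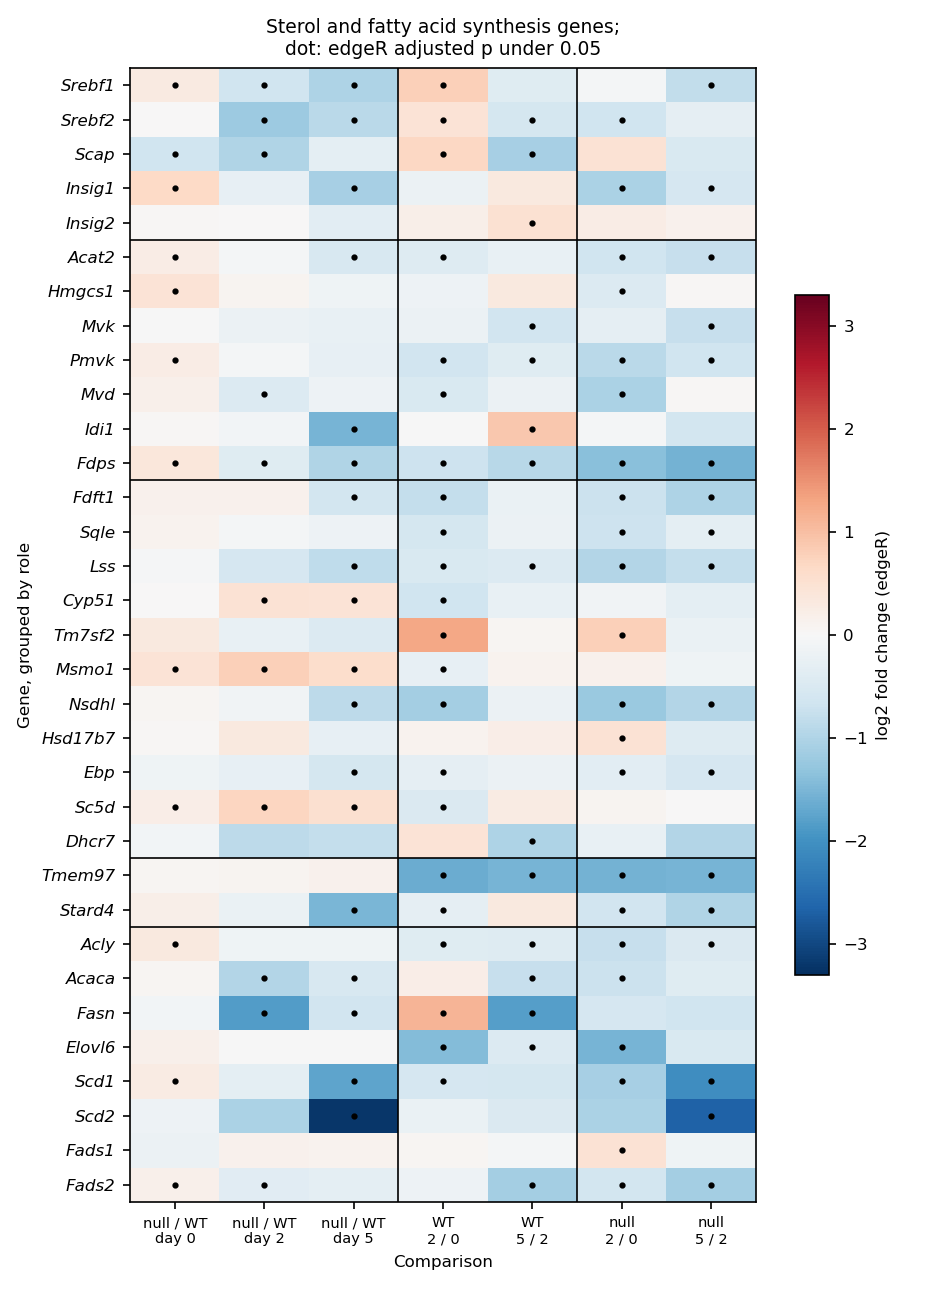
Log2 fold changes (color, blue lower and red higher in the first group) of the 33 members, grouped by role from regulators at the top to fatty acid genes at the bottom, in 7 comparisons. Dots mark an edgeR adjusted p under 0.05. The third column, Abcb10-null against WT at day 5, holds 15 blue and 3 red dotted cells.

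The difference between the genotypes' changes was tested by the genotype by day interaction, which is below 0 where the change from day 0 was lower in Abcb10-null than in WT cells. For day 5 it was called for 16 members, 1 above and 15 below 0, where 16.8% and 14.7% of the 14020 genes tested were. The median was -0.52 over the members and -0.011 over all genes. The lowest values were those of Scd2 (-3.04, adjusted p = 3.16e-05), Scd1 (-1.99, adjusted p = 8.75e-05), Insig1 (-1.73, adjusted p = 3.25e-06), Stard4 (-1.67, adjusted p = 4.79e-05) and Idi1 (-1.54, adjusted p = 0.00126), each called in all 20 fits that left out 1 library. The 1 called value above 0 was that of Cyp51 (0.45, adjusted p = 0.0191). Its call was lost under the looser filter of 1 count (edgeR adjusted p = 0.115) and with all 30 libraries in 1 fit (0.0667). Insig1 was higher in Abcb10-null cells at day 0 and lower at day 5, whereas Idi1 rose in WT cells, from a mean of 7.45 to 13.6 CPM, and fell in Abcb10-null cells, from 7.58 to 4.73 CPM (log2 fold change -0.67, adjusted p = 0.00473).

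For day 2 the interaction was called for 11 members, 2 above and 9 below 0, where 12% and 10.8% of the 13980 genes tested were, with a median of -0.26 over the members and 0.019 over all genes. Fasn (-1.69, adjusted p = 0.0206), Srebf2 (-1.16, adjusted p = 0.00811), Acaca (-0.95, adjusted p = 0.0264), Srebf1 (-0.88, adjusted p = 0.00347) and Insig1 (-0.87, adjusted p = 0.0091) were lowest, and Sc5d (0.54, adjusted p = 0.0259) and Cyp51 (0.52, adjusted p = 0.0291) were above 0. Without WT day 2 replicates 1 and 2, 7 members were called, all below 0, and Fasn (-0.79), Acaca (-0.48), Sc5d and Cyp51 were not among them (adjusted p = 0.188, 0.176, 0.0812 and 0.09). Without Abcb10-null day 2 replicates 2 and 5 the count was 21, and with all 4 left out it was 25. Leaving out Abcb10-null replicate 2 alone gave 19. With all 4 left out the value of Srebf1 was -0.53 (adjusted p = 0.00543), and over the 20 fits that left out 1 library Sc5d was called in 9 and Cyp51 in 8.

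The remaining members were followed by level. Mvk, mevalonate kinase, went from 34.6 ± 5.95 to 19.6 ± 3.59 CPM in WT and from 34.6 ± 3.22 to 16.5 ± 2.74 CPM in Abcb10-null cells between days 0 and 5 (SD, n = 5). Pmvk went from 119 ± 8.57 to 57.3 ± 10.7 CPM and from 142 ± 13.9 to 47.9 ± 13 CPM, and Mvd from 35.4 ± 1.98 to 21.8 ± 4.40 CPM and from 40.0 ± 3.53 to 19.5 ± 3.44 CPM. The fall of each of these consecutive enzymes was called in both genotypes. Sqle went from 176 ± 4.5 to 103 ± 6.87 CPM in WT and from 192 ± 8.37 to 92.9 ± 7.37 CPM in Abcb10-null cells. Dhcr7 was spread among Abcb10-null day 2 libraries, at 1.31, 9.86, 1.89, 1.03 and 5.55 CPM, with replicates 2 and 5 again the high ones. Hsd17b7 had group means from 10.2 ± 1.24 CPM (WT day 0) to 14.4 ± 3.83 CPM (Abcb10-null day 2).

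**Figure D5:**
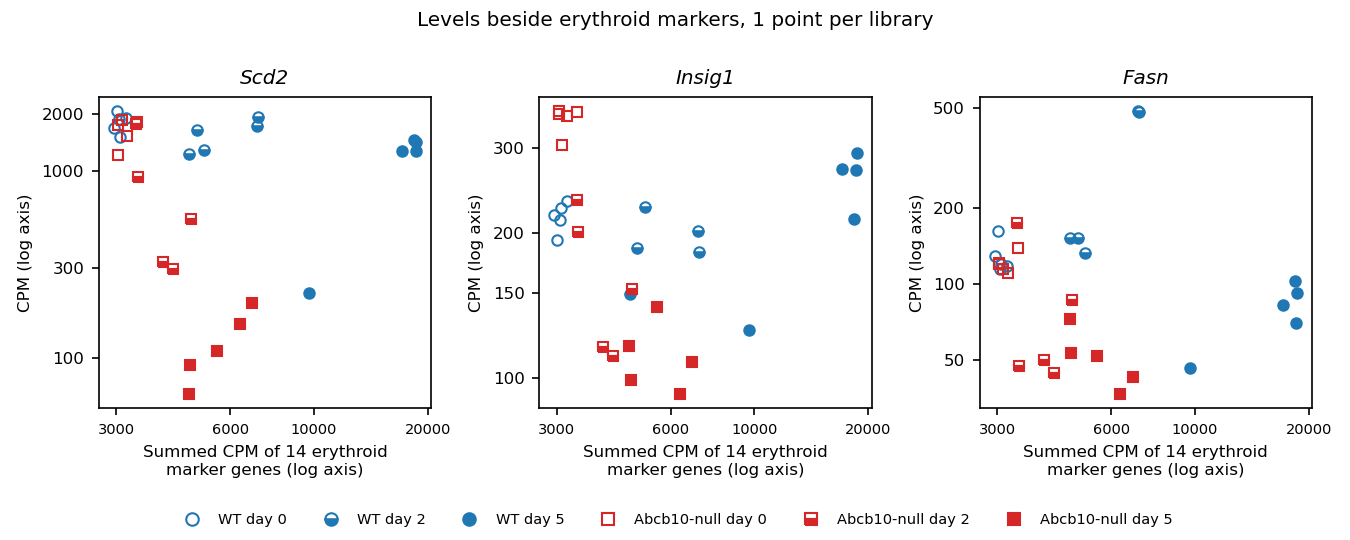
Levels in CPM of Scd2, Insig1 and Fasn (vertical log axes) against the summed CPM of 14 erythroid marker genes (horizontal log axis), with 1 point per library. Circles are WT and squares Abcb10-null libraries, open for day 0, filled in the lower part for day 2 and filled for day 5. WT day 5 replicate 5, at 9701 CPM of markers, has the lowest Scd2 (222 CPM), Insig1 (126 CPM) and Fasn (46.4 CPM) of its group.

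The plot of levels beside erythroid markers shows how the libraries that stood apart lay for 3 members. The Abcb10-null day 2 libraries with the lowest marker sums, replicates 2 and 5, had Insig1 at 234 and 200 CPM, against 111, 153 and 116 CPM in the other 3. At day 5 the Abcb10-null libraries had marker sums of 4660 to 6841 CPM, against 4678 to 7119 CPM in WT day 2 libraries. Scd2 was at 63.6 to 196 CPM in the former and 1222 to 1926 CPM in the latter. Such sums need not mark the same stage. Against day 0, 4 of 14 markers were lower in Abcb10-null cells at day 5, and none was in WT cells at day 2. These are values side by side at different days, and no test was made of them.

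Genes of the same pathways outside the 33 did not move as one at day 5. Of 14 tested genes of sterol synthesis and its control, 6 were higher in Abcb10-null cells and 3 lower. Erlin1, a lipid raft protein of the endoplasmic reticulum, was higher by 1.78, and Cyb5r3, which reduces cytochrome b5, was lower (-0.92). Of 11 genes of sterol export, esterification and liver X receptor control, 2 were higher (Soat2, which esterifies cholesterol, 2.12, and Npc2, a lysosomal sterol carrier, 0.64) and 2 lower (Mylip, a ubiquitin ligase of lipoprotein receptors, -1.45, and the receptor Nr1h2, -0.45). Of 17 other fatty acid synthesis and activation genes, 5 were higher and 3 lower. Hsd17b12, a reductase of fatty acid elongation, was higher by 1.20 and the carboxylase Acacb by 0.93. Lower were Fads3 (-1.71) and Acss2, which makes acetyl-CoA from acetate (-0.43). Of 14 mitochondrial fatty acid oxidation genes 4 were higher, with Hadh (0.80) and Echs1 (0.63) the furthest. Of 10 proliferation genes 2 were higher (Cdk1, 0.32, and Ccnb1, 0.31) and 2 lower (Mki67, -0.69, and Mcm5, -0.63). The background for these counts is the same 19.8% higher and 17.8% lower.

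Several members share exon sequence with other genes, so that their counts could be split or joined by the counting. The shares are of 51-base words of their transcripts found in any other gene, with the gene that shared most of them in parentheses. Acat2 shared 38.9% (Acat3), Acaca 30.3% (Gm5182), Fdft1 26.3% (Ctsb), Fdps 26.1% (Gm43738), Idi1 25.2% (Gm13502), Tmem97 20.6% (Gm5809) and Hmgcs1 11.5% (Gm48342). Scap shared 9.9% (5830462I19Rik) and Tm7sf2 9.8% (Vps51), while Scd1 and Scd2 shared 4.44% and 3.85%. The values of all these members are uncertain, and the shares do not bound the error, which also depends on the levels of the other genes. Words were matched on both strands, and the exon overlaps of Fdft1, Scap and Hmgcs1 lie on the opposite strand only. The effect on the counts was not tested.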

How the data were processed

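Total RNA from 30 libraries of MEL cells, 5 per genotype and day, was depleted of ribosomal and globin RNA and made into stranded libraries, per the labels. The authors aligned the reads to mouse GRCm38 with STAR (version 2.6.1b) and deposited raw counts per Ensembl gene from featureCounts (version 1.6.3), 1 column per library. The strand and multimapping settings of the counting are not given in the sources used here. Members were matched by Ensembl ID and symbol, and 37 IDs of the table had no entry in the GENCODE vM21 annotation of the same build, which also gave exon lengths and overlaps.

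From the deposited counts, each comparison was fitted over the whole table with the libraries of the groups compared, by edgeR's quasi-likelihood test (version 4.0.16, limma version 3.58.1, R version 4.3.3) after filterByExpr and TMM scaling. The study's methods name DESeq2. P-values were adjusted by Benjamini-Hochberg over all genes tested and called under 0.05. The genotype by day interaction used the 20 libraries of both genotypes at day 0 and the later day. The fits were tested on simulated data.

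The members and gene lists were chosen with earlier results of these data known. Every member called in a genotype comparison is named, with up to 5 rises and 5 falls per time comparison or interaction, and the 2 furthest calls per direction in other lists at day 5, save some genes that are not reported here. Alternatives were DESeq2 (version 1.42.0), its size factors in edgeR, filters of at least 1 count in all and of a minimum of 10 per library, 1 fit of all 30 libraries, a replicate block, and leaving out each library. Leaving out the day 2 libraries that stood apart was added after the data were seen.

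Library totals were 9906783 to 20157768, and a member's 17 counts in a library were the fewest, so counting error was largest for Dhcr7, Idi1 and Tm7sf2. No replicate pair agreed within sampling noise (lowest chi-square per degree of freedom 6.48). Same-numbered libraries mostly did not deviate together: over 75 pairs the correlation of deviations from the group means ran from -0.26 to 0.43, with 8 over 0.1. The highest were those of WT day 5 replicate 2 with replicate 2 of WT day 2 (0.43) and of Abcb10-null day 2 (0.35). Pairs with different numbers were not computed for comparison, and the numbers were not taken as pairing. The labels call the replicates biological, and the p-values measure the spread between these cultures of 1 clone or line.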

Additional observations from a re-analysis of the deposited data

Results flagged for a closer look

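In 16 of the 198 groups of 5 libraries examined, 1 for each member and group, the highest or lowest library lay far from the other 4, with a gap of more than 0.71 of the group's range. Chance gives about 1 such group in 20. At day 0, Abcb10-null replicate 1 was low in Insig1 (304 CPM, others 349 to 358), Pmvk (118 CPM, others 144 to 153) and Fdps (116 CPM, others 152 to 160), and WT replicate 5 was low in Sc5d (39.1 CPM, others 50.1 to 52.8) and high in Tm7sf2 (7.59 CPM, others 4.57 to 5.44) and Acaca (62.9 CPM, others 51.8 to 53.5).

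At day 2, Hmgcs1 was high in WT replicate 3 (71.7 CPM, others 59.0 to 62.1), Dhcr7 in WT replicate 1 (9.04 CPM, others 6.2 to 6.65), Ebp in Abcb10-null replicate 3 (48.4 CPM, others 37.7 to 39.1) and Elovl6 in Abcb10-null replicate 2 (38.5 CPM, others 18.8 to 23.3). At day 5, WT replicate 5 was low in Scd2 (222 CPM, others 1269 to 1458), and this library also had the low erythroid sum of 9701 CPM. Acaca was high in WT day 5 replicate 2 (59.0 CPM, others 29.8 to 33) and Abcb10-null day 5 replicate 1 (32.0 CPM, others 24.3 to 25.7). Srebf2 was high in Abcb10-null day 5 replicate 1 (23.7 CPM, others 17.6 to 19.3), Dhcr7 was high in replicate 4 (4.88 CPM, others 1.19 to 1.68) and Fads2 was low in replicate 5 (37.6 CPM, others 48.8 to 51.6) of the same group.

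The change with time differed between the genotypes by the interaction test for 11 members at day 2 and 16 at day 5. Beside the members named in the report at day 2 (Fasn -1.69, Srebf2 -1.16, Acaca -0.95, Srebf1 -0.88, Insig1 -0.87, Sc5d 0.54 and Cyp51 0.52), these were Fdps (-0.73, edgeR adjusted p = 0.0043), Mvd (-0.58, adjusted p = 0.0157), Fads2 (-0.47, adjusted p = 0.0131) and Acly (-0.39, adjusted p = 0.0202). At day 5 they were Scd2 (-3.04), Scd1 (-1.99), Insig1 (-1.73), Stard4 (-1.67), Idi1 (-1.54), Fdps (-1.35, adjusted p = 9.58e-06), Srebf1 (-1.28, adjusted p = 8.25e-06), Nsdhl (-0.90, adjusted p = 5.54e-05), Srebf2 (-0.88, adjusted p = 0.00024), Lss (-0.78, adjusted p = 0.000368), Acat2 (-0.76, adjusted p = 0.000183), Fdft1 (-0.74, adjusted p = 0.0207), Hmgcs1 (-0.56, adjusted p = 0.0158), Fads2 (-0.47, adjusted p = 0.0205), Acly (-0.44, adjusted p = 0.00291) and Cyp51 (0.45, adjusted p = 0.0191).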

How the results depend on the processing

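No named result changed direction under any alternative. The counts of members called stayed within 1.5 times of the reported ones with DESeq2, its size factors in edgeR, both filters on low counts and the replicate block. With all 30 libraries in 1 fit, 3 members were called at day 0 in place of 12. In the sets of day 2 libraries chosen after the data were seen, the day 2 count of 11 became 1 without WT replicates 1 and 2, 17 without Abcb10-null replicates 2 and 5, and 19 without all 4, and the day 2 interaction count of 11 became 7, 21 and 25. The cause was not tested, and these fits held fewer libraries.

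Leaving out 1 library gave 9 to 13 calls for Abcb10-null against WT at day 0, 5 to 15 at day 2 and 14 to 19 at day 5. For WT it gave 19 to 22 (day 2 against day 0), 9 to 17 (day 5 against day 2, the 9 without WT day 5 replicate 4) and 22 to 26 (day 5 against day 0), for Abcb10-null cells 20 to 25, 15 to 19 and 28 to 29, and for the interactions 8 to 19 (day 2, the 19 without Abcb10-null day 2 replicate 2) and 16 to 20 (day 5).

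With the replicate number as a block the counts were 11, 12 and 16 for Abcb10-null against WT at days 0, 2 and 5, 21, 15 and 23 within WT, 23, 15 and 28 within Abcb10-null cells, and 11 and 16 for the interactions. At day 5 the block lost Fdft1 (adjusted p = 0.0554), Acaca (0.0528) and Fasn (0.0788). Over all same-numbered pairs the median correlation of deviations was -0.0145. Whether the block suits these libraries, and so what these losses mean, was not tested.

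The filter of at least 1 count lost Cyp51 at day 5 (adjusted p = 0.0942), and all 30 libraries in 1 fit lost Acaca (0.0555) and Fasn (0.147). DESeq2, which also tested low genes, moved the median of all genes at day 5 to 0.20, and the 1-count filter moved it to 0.14. Depth limits Dhcr7 most, since its levels of 1.03 to 9.86 CPM rested on the fewest counts.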
